A study of Homo sapiens with 6 samples.

Results

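MALAT1, NEAT1, NORAD, KCNQ1OT1, CYTOR, PVT1, TUG1 and MIAT are 8 long noncoding RNAs (lncRNAs) that were followed by name in H9 cells, a cutaneous T-cell lymphoma (CTCL) line, upon CDK9 antagonism. They are 8 of the 61541 genes in the table of counts, taken by symbol. Each symbol had a single row, and all 8 genes were among the 17678 that passed a filter on low counts. The vehicle control group was 3 libraries of H9 cells given DMSO, and the treated group was 3 libraries of H9 cells given AZD4573, a selective CDK9 inhibitor, at 50 nM for 4 h. Both groups were WT in genotype per the labels and were grown in RPMI with serum, and a single cell line was the only model. The labels number the libraries within a group but do not say that they came from separate cultures, so p-values measure the spread between these libraries, which may be technical.

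LncRNAs are transcripts with no known protein product, and most are made by RNA polymerase II (RNAP2), whose release from pausing needs CDK9. MALAT1 collects in nuclear speckles, NEAT1 builds the nuclear bodies called paraspeckles, and NORAD is a mainly cytoplasmic RNA that binds Pumilio proteins. The 3′ ends of MALAT1 and of the long form of NEAT1 are cut by RNase P and end in an encoded A-rich tract that folds into a triple helix, in place of a poly(A) tail. KCNQ1OT1 is the paternally expressed antisense RNA of an imprinted domain, PVT1 lies beside MYC, and CYTOR, TUG1 and MIAT were first described in work on cell growth, on retinal development and on myocardial infarction.

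The sequence that sets NORAD apart is the Pumilio element, searched here as TGTANATA on the transcript strand. Its single-exon transcript of 5401 bases (chr20:36045618-36051018, minus strand, GRCh38, GENCODE release 44) held 15 such elements, or 2.78 per kb. Of the 18866 canonical transcripts of annotated lncRNA genes, 9.8% held at least 1 element and 3 held more than NORAD. Of the 7840 with at least 1000 bases, 17.6% held at least 1 element and 7 held more per kb than NORAD. The element took the form TGTATATA at 10 positions, TGTAAATA at 4 and TGTACATA at 1. One 30-base window of each form, and the window that precedes the last of them, are shown with the element in capitals. The windows lie on the minus strand at chr20:36049803-36049832, chr20:36049118-36049147, chr20:36049501-36049530 and chr20:36049492-36049521. The elements of the last 2 windows begin at transcript positions 1500 and 1509.
NORAD site 2: cctcactactgTGTATATAgttgacaatgc
NORAD site 6: aaataccacttTGTAAATAtctttttgcta
NORAD site 4: ttacttatctgTGTATATAgtgtacataaa
NORAD site 5: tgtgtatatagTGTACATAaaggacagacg
NEAT1 held 6 elements in 22743 bases and TUG1 held 2 in 7474 bases. No match was found in the canonical transcripts of MALAT1, KCNQ1OT1, CYTOR, PVT1 and MIAT. For KCNQ1OT1 this covers 679 bases, where its longest transcript has 91667, and for CYTOR 1020 bases, where its longest has 7512. For MIAT it covers 3760 bases, where its longest has 10143, and for PVT1 2444 bases, where all its annotated exons hold 25431. Exon bases outside the canonical transcripts were not searched for any member.

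**Figure D1:**
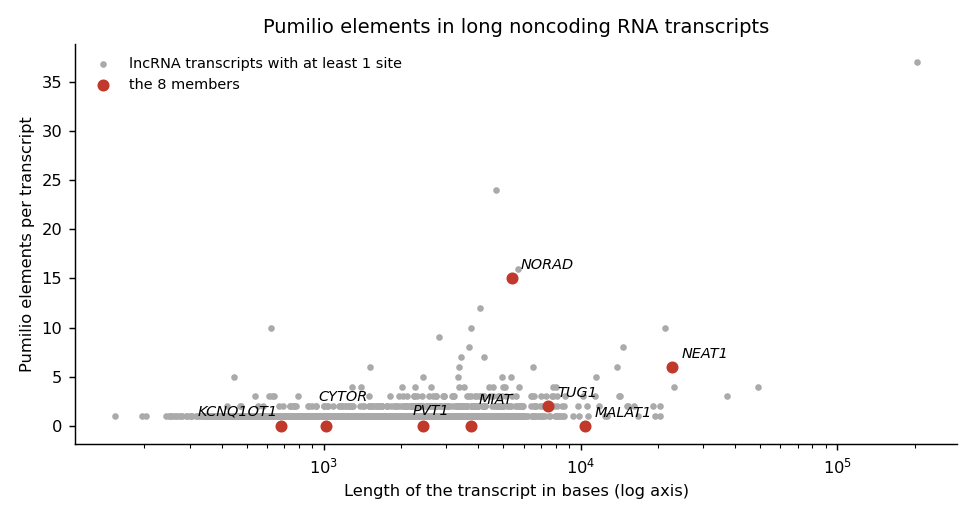
Number of TGTANATA elements (vertical axis) against transcript length in bases (horizontal log axis), for lncRNA canonical transcripts with at least 1 element (grey) and for the 8 members (red). NORAD lies at 15 elements and 5401 bases, and 5 members lie at 0, among them KCNQ1OT1, searched over 679 bases only.

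MALAT1 and NEAT1 are neighbours on chromosome 11 that share their 3′ end architecture, which is why both ends are shown. NEAT1 (chr11:65422774-65445540, plus strand) ended 52100 bases before MALAT1 (chr11:65497640-65508073, plus strand). The last 11 bases of NEAT1, 9 of them A, were also found at the A-rich end of MALAT1, and a U-rich run of 16 bases further upstream was shared as well. Both shared runs are in capitals below, written as DNA. The MALAT1 window (chr11:65506017-65506176) runs 60 bases past the A-rich end, into the part that is cut off as a small cytoplasmic RNA, and the NEAT1 window (chr11:65445441-65445540) stops at the annotated end of the gene.
NEAT1 3′ end: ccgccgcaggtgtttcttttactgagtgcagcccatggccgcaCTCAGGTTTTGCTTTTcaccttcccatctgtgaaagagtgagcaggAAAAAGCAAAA
MALAT1 A-rich end: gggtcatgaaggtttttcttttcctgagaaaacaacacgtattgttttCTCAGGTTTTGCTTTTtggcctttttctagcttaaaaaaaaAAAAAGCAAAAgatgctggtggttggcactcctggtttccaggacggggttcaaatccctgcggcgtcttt

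Promoter windows from RefSeq (GRCh38.p14, 250 bases before the start and 50 after) were used for 5 of the 8 genes. Those of TUG1 and NORAD are shown, as the member with the largest rise and the abundant member that fell. The motifs in capitals were chosen after the sequences were seen and were searched on both strands. Of 35116 promoter windows of this length, 11.5% held the TATA box TATAAA. The CCAAT box was in 34.6% of them and the GC box, searched as GGGCGG, in 45.0%. TUG1 held 4 GC boxes and 2 CCAAT boxes, and NORAD held none of the 3 motifs. The TUG1 window is chr22:30969015-30969314 on the plus strand and the NORAD window is chr20:36050911-36051210 on the minus strand.
TUG1 promoter: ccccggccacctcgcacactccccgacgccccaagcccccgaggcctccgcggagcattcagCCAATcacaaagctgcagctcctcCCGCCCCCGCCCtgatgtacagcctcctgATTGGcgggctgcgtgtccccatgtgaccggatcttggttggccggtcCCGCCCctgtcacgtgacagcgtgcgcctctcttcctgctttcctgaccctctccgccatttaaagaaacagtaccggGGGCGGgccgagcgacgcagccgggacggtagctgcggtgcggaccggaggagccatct
NORAD promoter: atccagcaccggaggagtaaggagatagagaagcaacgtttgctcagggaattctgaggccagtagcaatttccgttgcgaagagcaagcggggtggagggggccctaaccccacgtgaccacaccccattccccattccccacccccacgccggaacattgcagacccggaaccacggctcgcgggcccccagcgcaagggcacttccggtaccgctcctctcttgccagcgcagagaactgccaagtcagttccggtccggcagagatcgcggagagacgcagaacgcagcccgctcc
MALAT1 has 2 RefSeq starts. The window of the upstream start held 5 GC boxes, and that of the downstream start held a TATA box at -30 from the start.

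Total counts ranged from 52101868 to 76571157 per library, and the AZD4573 libraries held fewer than the DMSO libraries. Levels are given in CPM, a gene's count divided by its library total and multiplied by 1000000. Of 10 T-cell markers, 9 exceeded 1 CPM and CD2 stayed at or below 0.17 CPM, and their sum was 1530 to 1560 CPM with DMSO and 2010 to 2100 CPM with AZD4573. Of 12 markers of B, myeloid, erythroid and epithelial cells and fibroblasts, 3 exceeded 1 CPM (EPCAM, CD79A and COL1A1), HBB was at 0, and their sum was 219 to 239 CPM with DMSO and 221 to 229 CPM with AZD4573. Within this sum the B-cell markers summed to 57.6 to 62.8 CPM with DMSO and 87.1 to 94.7 CPM with AZD4573, and the epithelial markers to 155 to 171 CPM and 126 to 133 CPM. The part of these markers in the members' values was not tested. The labels name poly(A) selection and the supplemental methods of the study name rRNA depletion. Since MALAT1 and the long form of NEAT1 have no poly(A) tail, their levels, ranks and ratios to other members depend on which was used. RN7SK, a small nuclear RNA without a poly(A) tail, was at 1.58 to 6.51 CPM over the 6 libraries.

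Upon AZD4573 treatment, MALAT1, NEAT1, PVT1, TUG1 and MIAT rose and NORAD, KCNQ1OT1 and CYTOR fell, each with an adjusted p below 0.05. The p-values are those of the quasi-likelihood test in edgeR, adjusted over the 17678 tested genes by the Benjamini-Hochberg method. These fold changes rest on TMM normalization, which sets libraries level on the bulk of their genes. With libraries scaled to the 13 mRNAs encoded by the mitochondrial genome, PVT1 turned to -0.07 on the log2 scale (adjusted p = 0.57) and NEAT1 and MIAT kept their sign at adjusted p = 0.072 and 0.605. At this threshold, 37.4% of all tested genes fell and 37.3% rose, against 3 and 5 of the 8 members. With a fold change of at least 1.5 added to the adjusted p, where the study names a p-value with no adjustment, 5 members rose and KCNQ1OT1 alone fell, where 22.7% of all tested genes rose and 23.7% fell. In CPM the groups of libraries did not overlap for any of the 8 members, 3 with the AZD4573 libraries lower and 5 with them higher, where 42.9% of all tested genes did not overlap with AZD4573 lower and 34.2% with AZD4573 higher. The median log2 fold change was 0.75 over the 8 members and 0.03 over all genes tested.

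**Figure D2:**
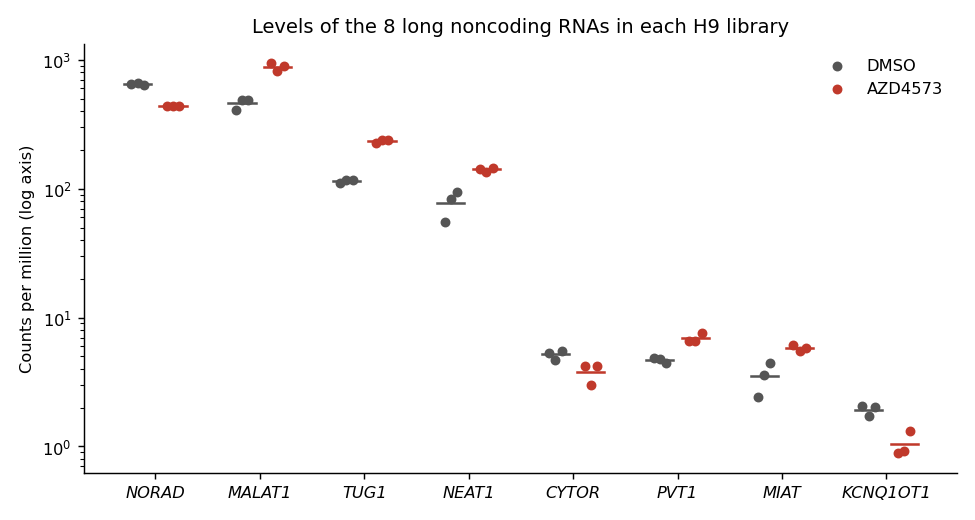
CPM (log axis) of each member in the 3 DMSO (grey) and 3 AZD4573 (red) libraries, with a line at the mean of each group. In each of the 8 genes the red and grey points do not overlap, with 5 genes higher and 3 lower with AZD4573, and NORAD, MALAT1, TUG1 and NEAT1 lie far above the other 4.

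Abundance divided the 8 genes into 2 classes. NORAD ranked 1 among 17659 lncRNA genes by CPM with DMSO (TUG1 was added to this class, since GENCODE lists it as protein coding), MALAT1 ranked 5, TUG1 17 and NEAT1 21. CYTOR ranked 316, PVT1 354, MIAT 452 and KCNQ1OT1 668, so the name abundant did not hold for these 4 genes in H9 cells. With AZD4573, MALAT1 ranked 4, NORAD 5, TUG1 7 and NEAT1 14. All 8 genes together took 0.123% to 0.137% of the counts with DMSO and 0.165% to 0.177% with AZD4573.

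Levels per length were compared as CPM per kb of annotated exon. With DMSO, NORAD was highest at 121 ± 2.2 CPM per kb (SD, n = 3), followed by MALAT1 at 44.2 ± 4.53, TUG1 at 11.3 ± 0.35 and NEAT1 at 3.41 ± 0.869. With AZD4573, MALAT1 stood at 85.0 ± 5.8 and NORAD at 81.3 ± 0.395 CPM per kb, and the ranges of these neighbours in the order overlapped. The order of the less abundant genes depended on the length used. With DMSO it was CYTOR, MIAT, PVT1 and KCNQ1OT1 per kb of all annotated exons (0.292 to 0.0209 CPM per kb, with overlap between CYTOR and MIAT and between MIAT and PVT1), and PVT1 came ahead of CYTOR per kb of the longest transcript, at 1.91 against 0.69 CPM per kb.

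TUG1 (ENSG00000253352, chr22:30969245-30979395, plus strand) had the largest rise. It was first described in the developing retina, and its canonical transcript has 3 exons. Its level was 111, 117 and 117 CPM in the DMSO libraries and 228, 239 and 241 CPM in the AZD4573 libraries. The lowest treated library lay far above the highest control, and neither group spread by more than a few percent (CV of 3.09% and 2.85%). The log2 fold change was 1.14 (SE 0.0436, adjusted p = 1.1e-10), or 2.21-fold. With mitochondrial scaling it was 0.40 (adjusted p = 3.3e-06). Of its 10151 exon bases, 1460 (14.4%) are also covered by other annotated genes.

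MALAT1 (ENSG00000251562) rose to a similar extent. Its level was 406, 490 and 486 CPM with DMSO and 938, 820 and 902 CPM with AZD4573. DMSO replicate 1 was the lowest of the 6 libraries, and the groups did not overlap. It had a log2 fold change of 1.05 (SE 0.0654, adjusted p = 6.9e-09), or 2.07-fold, and 0.31 with mitochondrial scaling (adjusted p = 9.7e-04). Of its 10434 exon bases, 8731 (83.7%) are also covered by genes annotated on the opposite strand, and the counting ignored strand, so reads of MALAT1 and of these antisense genes cannot be told apart.

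NEAT1 (ENSG00000245532), the scaffold of paraspeckles, had the widest spread among the abundant members. Its level was 55.6, 82.9 and 94.1 CPM with DMSO and 143, 135 and 146 CPM with AZD4573. The 3 control libraries varied (CV of 25.5%) while the treated libraries lay close together (CV of 3.96%), and the median CV over 9523 genes of at least 10 CPM was 3.75% and 4.37%. The log2 fold change was 0.98 (SE 0.128, adjusted p = 1.1e-05), or 1.97-fold. Its short and long forms overlap, and gene counts do not separate them.

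MIAT (ENSG00000225783, chr22:26646411-26676475, plus strand), a nuclear lncRNA, had NEAT1 as its nearest gene in pattern over the 6 libraries. Its level was 2.44, 3.61 and 4.48 CPM with DMSO and 6.08, 5.47 and 5.78 CPM with AZD4573. DMSO replicate 1 was again the lowest library and DMSO replicate 3 the highest control, without overlap between groups. The log2 fold change was 0.83 (SE 0.169, adjusted p = 5.6e-04) from 187 to 369 counts per library. RN7SK had the same order in the controls, at 1.58, 2.73 and 4.59 CPM, and 5.39, 6.51 and 5.94 CPM with AZD4573. RN7SL1, RMRP and RPPH1, which also lack a tail, had this order in the controls too, but their groups overlapped, as for RMRP at 0.17, 0.554 and 1.96 CPM against 0.48, 0.135 and 0.455 CPM. The mRNAs of 65 replication-dependent histone genes, which also lack a tail, summed to 110, 107 and 124 CPM with DMSO, another order. With AZD4573 they summed to 129, 125 and 136 CPM, without overlap between groups. The part of library composition in the NEAT1 and MIAT values was not tested. Without DMSO replicate 1 the log2 fold changes of NEAT1 and MIAT were 0.78 and 0.62. Of the 15892 exon bases of MIAT, 3050 (19.2%) are also covered by other annotated genes, so the division of reads is uncertain there. MIATNB, which overlaps MIAT on the same strand, was at -0.36 (adjusted p = 0.112).

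PVT1 (ENSG00000249859), whose host region also yields microRNAs, had the smallest rise. It is annotated on chromosome 8 from 127794526 to 128187101 on the plus strand, with 190 transcripts. Its level was 4.86, 4.73 and 4.42 CPM with DMSO and 6.56, 6.63 and 7.54 CPM with AZD4573. The groups did not overlap in CPM, and its log2 fold change was 0.67 (SE 0.103, adjusted p = 5.1e-05), or 1.59-fold. MYC, which ends 51575 bases before it, was at 677 ± 5.15 CPM with DMSO and 706 ± 52.7 CPM with AZD4573 (SD, n = 3), with a log2 fold change of 0.17 (SE 0.0542, adjusted p = 0.0136) and overlapping groups, which turned to -0.58 with mitochondrial scaling (adjusted p = 4.3e-08).

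NORAD (ENSG00000260032) was the abundant member that fell. Its level was 646, 665 and 644 CPM with DMSO and 439, 437 and 441 CPM with AZD4573. Replicates lay within a few CPM of each other with AZD4573, and the groups were wide apart. It had a log2 fold change of -0.47 (SE 0.0388, adjusted p = 1.2e-07), or 1.38-fold lower, short of the 1.5-fold threshold. With mitochondrial scaling it was -1.20. Its exons overlap no other annotated gene, but 34.9% of its 50-base words also occur in transcripts of 65 genes elsewhere, most of them in OVCH1-AS1 (22.5%), which had 16 to 47 counts per library against 22883 to 49467 for NORAD.

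KCNQ1OT1 (ENSG00000269821, chr11:2597308-2700003, minus strand) had the largest fall and the lowest level. Its counts were 158, 121 and 142 with DMSO and 46, 55 and 84 with AZD4573, or 2.06, 1.72 and 2.01 CPM against 0.883, 0.925 and 1.32 CPM. Each treated library lay below each control, with AZD4573 replicate 3 nearest to the controls. Its log2 fold change was -0.78 (SE 0.202, adjusted p = 0.00331), or 1.71-fold lower, and -1.52 with mitochondrial scaling. KCNQ1, the potassium channel gene in which it lies on the opposite strand, had 0 counts in all 6 libraries, which allows up to 3 counts or 0.0392 to 0.0576 CPM per library, for counting error only.

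CYTOR (ENSG00000222041, chr2:87454781-87636740, plus strand), a lncRNA named for a role in the cytoskeleton, had the largest adjusted p of the 8. Its level was 5.35, 4.70 and 5.50 CPM with DMSO and 4.18, 3.01 and 4.19 CPM with AZD4573. The groups did not overlap, and AZD4573 replicate 2 was the lowest library. The log2 fold change was -0.35 (SE 0.137, adjusted p = 0.0339), and without AZD4573 replicate 2 it was -0.21 (adjusted p = 0.148). The call was also lost without DMSO replicate 1 (adjusted p = 0.0736) or DMSO replicate 3 (adjusted p = 0.0834). Its longest transcript shared 62.3% of its 50-base words with MIR4435-2HG, a partial copy on the same chromosome, so the division of reads between the genes is uncertain. MIR4435-2HG had a log2 fold change of 0.46 (SE 0.127, adjusted p = 0.00507). With mitochondrial scaling MIR4435-2HG turned to -0.28 (adjusted p = 0.087) and CYTOR stood at -1.08 (adjusted p = 2.8e-06). The sum of both genes was 8.97 ± 0.3 CPM with DMSO and 8.65 ± 1.39 CPM with AZD4573 (SD, n = 3, exact two-sided permutation p = 0.8).

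**Figure D3:**
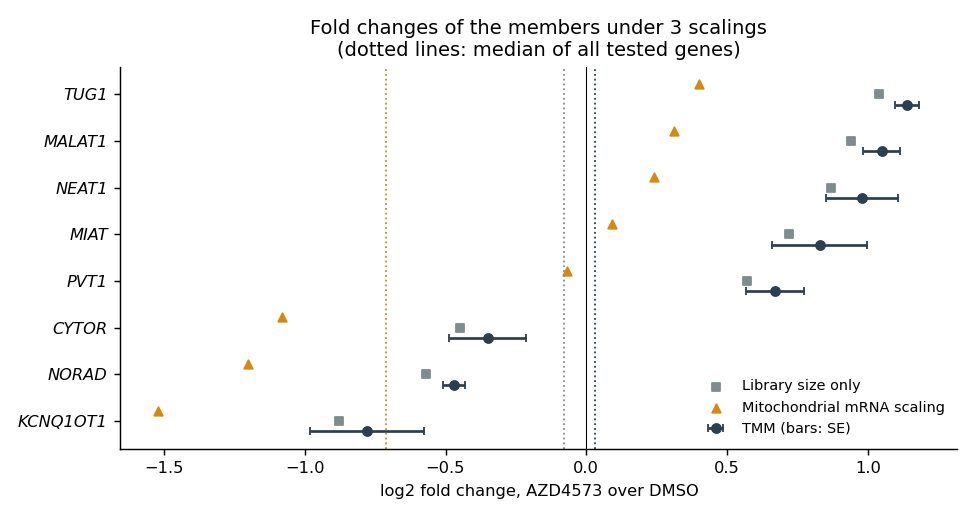
log2 fold change of each member (AZD4573 over DMSO, 3 libraries each) with TMM (circles, bars are SE), library size only (squares) and mitochondrial mRNA scaling (triangles), with dotted lines at the median of all tested genes. Members keep their order, and with mitochondrial scaling PVT1 lies at -0.07 and the median of all genes at -0.71.

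The scaling shifted all genes together. The mitochondrial mRNAs took 3.04% to 3.22% of the counts with DMSO and 4.67% to 4.98% with AZD4573, and scaling to them took the median over all genes from 0.03 to -0.71 on the log2 scale. Relative to the median of all genes, TUG1 stood at 1.12 with TMM and 1.11 with mitochondrial scaling, MALAT1 at 1.02 and 1.03, and PVT1 at 0.65 and 0.64. NORAD stood at -0.49 under both, KCNQ1OT1 at -0.80 and -0.81, and CYTOR at -0.37 under both. TUG1 exceeded 86.8% of all tested genes and KCNQ1OT1 exceeded 19.5% with TMM. Which of these scalings gives the amounts of RNA per cell was not tested.

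Ratios between members within a library do not depend on the scaling. There were 28 pairs, and the ratios of the DMSO and AZD4573 libraries did not overlap in 19 of them. With 3 libraries against 3, the exact two-sided permutation test cannot go below 0.1 (0.147 after Benjamini-Hochberg adjustment over the 28 pairs), and these 19 pairs reached that value. The 15 pairs of a member that rose with a member that fell were among them by construction, since in CPM each of these members was already apart between the groups.

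MALAT1 had fewer counts than NORAD with DMSO and more with AZD4573, while per kb their ranges overlapped with AZD4573. The MALAT1 count was 0.629, 0.737 and 0.755 times that of NORAD in the DMSO libraries and 2.14, 1.88 and 2.05 times in the AZD4573 libraries. On the log2 scale the ratio went from -0.51 ± 0.143 to 1.01 ± 0.0944 (SD, n = 3), a difference of 1.52. The ratio of NORAD to TUG1 went from 5.82, 5.68 and 5.50 to 1.92, 1.83 and 1.83, a log2 difference of -1.61, with the smallest spread of all pairs between the abundant members that moved in opposite directions. The largest difference was that of KCNQ1OT1 to TUG1, at -1.95 on the log2 scale.

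Pairs that rose together kept closer ratios, which follows in part from sorting the members by their own direction of change. The MALAT1 count was 7.30, 5.91 and 5.16 times that of NEAT1 with DMSO and 6.58, 6.06 and 6.16 times with AZD4573, a log2 difference of 0.05 with overlapping groups (exact permutation p = 0.8). The ratio of MALAT1 to TUG1 differed by -0.09 on the log2 scale (exact permutation p = 0.5). Of the 10 pairs of rising members, 3 did not overlap, and these were PVT1 with MALAT1 and with TUG1 and NEAT1 with MIAT. Of the 3 pairs of falling members, KCNQ1OT1 with CYTOR did not overlap, at a log2 difference of -0.45.

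**Figure D4:**
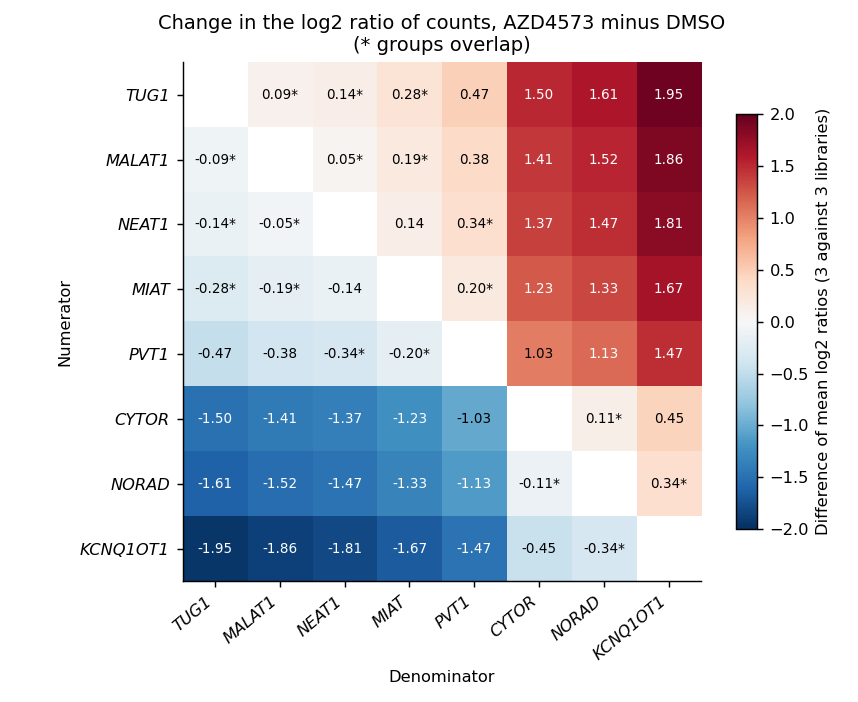
Change in the log2 ratio of counts of the gene on each row to the gene in each column, as the mean of 3 AZD4573 libraries minus the mean of 3 DMSO libraries. Values run from -1.95 to 1.95, and an asterisk marks the pairs whose groups overlap, which lie among genes that moved the same way.

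Among all lncRNA genes, rises were more common than falls. Of the 2835 other lncRNA genes tested, 1235 rose (43.6%) and 438 fell (15.4%) at an adjusted p under 0.05. Over all tested genes 37.3% rose and 37.4% fell. The median log2 fold change of the 2835 genes was 0.46. With mitochondrial scaling 635 were higher and 1046 lower, where 2144 of all 17678 tested genes were higher and 11878 lower. Of the 192 other lncRNA genes with a mean of at least 10 CPM, 105 rose and 49 fell, with a median of 0.36.

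**Figure D5:**
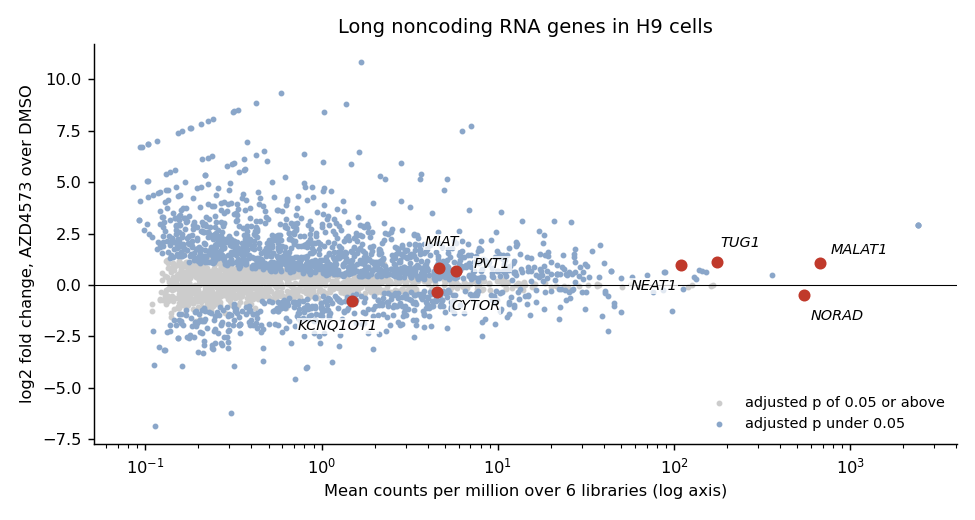
log2 fold change upon AZD4573 treatment (vertical axis) against mean CPM over 6 libraries (horizontal log axis) for lncRNA genes, in blue where the adjusted p was under 0.05 and otherwise in grey, with the 8 members in red. MALAT1, NORAD, TUG1 and NEAT1 lie at the right among the most abundant lncRNA genes, with NORAD below 0 and the others near 1.

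Among 24 other named lncRNAs that were tested, 11 rose and 6 fell, where 37.3% of all tested genes rose and 37.4% fell. The median log2 fold change of the 24 was 0.34. GATA3-AS1, antisense to the gene of GATA-3, rose most (2.59, adjusted p = 8.1e-09), followed by LINC-PINT (0.79) and ZFAS1 (0.65). MIR17HG and MIR22HG, which are hosts of microRNAs, fell by 1.52 and 1.34 on the log2 scale, and CHASERR, a lncRNA beside CHD2, fell by 1.01. With mitochondrial scaling 1 of the 24 was higher and 17 lower, where 2144 of all 17678 tested genes were higher and 11878 lower. GATA3-AS1 then stood at 1.85 (adjusted p = 3.2e-08), LINC-PINT at 0.05 and ZFAS1 at -0.09.

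Genes of proteins that act with the members were described in lists. Of 21 paraspeckle protein genes, 9 fell and 10 rose, where 37.4% of all tested genes fell and 37.3% rose. The median log2 fold change of the 21 genes was 0.01, while NEAT1 rose. RBM12 (-1.59), TARDBP (-0.94) and PSPC1 (-0.72) had the largest falls, and DAZAP1 (0.59), TAF15 (0.44) and HNRNPUL1 (0.38) the largest rises. SFPQ and NONO, the core proteins that bind NEAT1 and which were singled out after their values were seen, stood at -0.49 and 0.22. With mitochondrial scaling all 21 genes were lower, as were 11878 of all 17678 tested genes.

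Of 11 nuclear speckle protein genes, 8 fell and 2 rose, where 37.4% of all tested genes fell and 37.3% rose. The median of the 11 genes was -0.62, while MALAT1 rose. The splicing factors SRSF3 (-1.60), SRSF1 (-1.14) and RBM25 (-1.13) had the largest falls, and SRRM2 (0.53) and CLK1 (0.27) were the genes that rose. With mitochondrial scaling SRRM2 and CLK1 turned to -0.21 and -0.47 and all 11 were lower, as were 11878 of all 17678 tested genes. The genes of RNase P proteins and ELAC2, the enzymes that cut the MALAT1 3′ end, fell in 11 of 11 cases, with a median of -0.78. Over all tested genes 37.4% fell. All 11 were also lower with mitochondrial scaling, which shifts all genes down and so could not have turned them. RPP40 (-2.25), RPP25 (-2.11) and RPP38 (-1.63) had the largest falls.

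Among genes of proteins that bind NORAD, RBMX, a nuclear RNA-binding protein, and PUM2, a Pumilio protein, fell by 0.73 and 0.68 on the log2 scale, and KHDRBS1, a signalling-linked RNA-binding protein, rose by 0.33. PUM2 was at 172 ± 1.98 CPM with DMSO and 100 ± 8.93 CPM with AZD4573 (SD, n = 3), and its groups did not overlap. With mitochondrial scaling all of these were lower, KHDRBS1 at -0.41, as were 11878 of all 17678 tested genes.

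Of 10 genes of the imprinted KCNQ1 domain, 7 could be tested, 2 fell and 4 rose. Over all tested genes 37.4% fell and 37.3% rose. PHLDA2, a placental growth regulator, fell by 0.73 on the log2 scale and NAP1L4, a histone chaperone, by 0.16. TSPAN32 (1.28), SLC22A18 (1.07) and CDKN1C (0.54), the last an inhibitor of cyclin-dependent kinases, had the largest rises. With mitochondrial scaling 4 genes were lower and 1 higher, SLC22A18 at 0.33, where 11878 of all 17678 tested genes were lower and 2144 higher. TSPAN32, at 13 to 42 counts per library, then stood at 0.54 (adjusted p = 0.209). CDKN1C turned to -0.20 (adjusted p = 0.171).

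Of 30 tested genes within 100 kb of a member, members left out, 12 fell and 9 rose, with a median log2 fold change of -0.15. Beside MALAT1 and NEAT1, the largest falls were those of KCNK7 (-2.21), TIGD3 (-1.48) and DPF2 (-1.15), a chromatin remodelling subunit, and the largest rises those of ENSG00000289339 (1.86), ZNRD2-DT (0.95) and EHBP1L1 (0.67). Counts were low for KCNK7 (1 to 33 per library), TIGD3 (14 to 72), ENSG00000289339 (19 to 85) and ZNRD2-DT (35 to 77). EHBP1L1 turned to -0.07 with mitochondrial scaling. NCAL1, which overlaps CYTOR on the same strand, was at 0.77 and at 0.03 with mitochondrial scaling. MORC2, 471 bases from TUG1 on the opposite strand, was at 0.21 (SE 0.0487, adjusted p = 0.00173) and turned to -0.53 with mitochondrial scaling, while OSBP2 on the TUG1 strand was at -0.97. Beside NORAD, SCAND1 was at -0.30 and PHF20 at 0.16, which turned to -0.57, and TPST2 beside MIAT was at -0.49. With mitochondrial scaling 22 of the 30 were lower and 2 higher, where 11878 of all 17678 tested genes were lower and 2144 higher.

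The genes whose pattern over the 6 libraries was most like that of each member were found by the distance between log2 CPM values centred on each gene's mean, over 9523 genes with a symbol and at least 10 CPM. For NORAD these were DDX1 (distance 0.0287) and KIFC1 (0.0435), both at about the same log2 fold change (-0.47 and -0.48). For TUG1 they were PEAK1 (0.0674) and RAB12 (0.0721), and for PVT1 they were GZMM (0.0758) and TSPAN2 (0.0801). MALAT1 was nearest to PRKY (0.0957) and to the lncRNA PAX8-AS1 (0.118). NEAT1 was nearest to MAP3K12 (0.145) and AMH (0.243), and MIAT to NEAT1 (0.219) and MAP3K12 (0.265). CYTOR was nearest to PRKCQ (0.207) and SMIM5 (0.216) and KCNQ1OT1 to NAP1L5 (0.285) and FAM72A (0.293), at greater distances than the abundant NORAD and TUG1.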

How the data were processed

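Bulk RNA-seq of 6 H9 libraries was used, 3 with DMSO and 3 with AZD4573, each placed in its group by its label. The authors deposited expected counts per gene, in whole numbers and without normalization, from reads trimmed with Cutadapt 2.3, aligned to GRCh38 with STAR 2.7.8a and counted by RSEM 1.3.3 with default settings, which ignore strand. The ENSEMBL release is not given in the sources used here. GENCODE release 44, which holds 61369 of the 61541 gene IDs, gave positions and exons.

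Genes were kept by edgeR's filter (minimum count 10), normalized by TMM and compared with the quasi-likelihood test of edgeR 4.0.16 in R 4.3.3, with Benjamini-Hochberg adjustment. SE was the log2 fold change divided by the square root of F. Permutation tests used SciPy 1.17.1. Counts of libraries of the same group differed beyond sampling noise in each pair (chi-square divided by its degrees of freedom, 5.59 to 21.2).

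The members and lists were chosen with earlier results of these data known. All members were named, with at most 3 falls and 3 rises per list at an adjusted p under 0.05, the 2 most alike genes per member and neighbours within 100 kb. RN7SK, RN7SL1, RMRP, RPPH1, the summed histone genes, MYC and OVCH1-AS1 were named beside results that they touch. Alternatives covered the scaling (RLE, library size only, mitochondrial mRNAs), the filter (none, or 10 counts in all libraries), leaving out single libraries, a replicate block, DESeq2 1.42.0 and other call rules. One gene of these lists is not reported here.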

Additional observations from a re-analysis of the deposited data

How the results depend on the processing

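Of 104 log2 fold changes of members under alternatives, 97 kept their sign and their side of the adjusted p of 0.05. With mitochondrial scaling PVT1 turned to -0.07, and NEAT1 (0.24) and MIAT (0.09) lost the call. No member was then called higher at 1.5-fold (0) and 3 were called lower, with 9433 genes lower and 1769 higher over all genes and 910 and 590 over lncRNA genes. With at least 10 counts in every library, 15247 genes were tested in place of 17678, and 237 lncRNA genes were called lower in place of 367. CYTOR lost its call with this filter (-0.31, adjusted p = 0.055), and ranged from -0.44 to -0.21 with a library left out. Over all settings its adjusted p ran from 2.8e-06 to 0.148, that of NEAT1 from 2.2e-64 to 0.072, that of PVT1 from 2.5e-07 to 0.57 and that of MIAT from 4.7e-09 to 0.605. With library size only, PVT1 stood at 0.57, short of the 1.5-fold threshold, and 4 members were called higher in place of 5. A fold change of at least 2 left 2450 genes lower and 2643 higher, and 0 and 2 members. With the replicate block the CYTOR, NEAT1 and MIAT values were -0.36, 1.00 and 0.85, and no call of a member changed. The replicate numbers only share a label, since deviations of same-numbered libraries correlated at -0.0208, 0.0417 and 0.0316. Leaving out 1 library turned the sign of 3 ratios near 0, MALAT1 to NEAT1 (-0.07 to 0.18), NEAT1 to TUG1 (-0.33 to 0.01) and PVT1 to MIAT (-0.43 to 0.07). Lengths of the longest transcript moved the levels per kb of CYTOR (0.69), PVT1 (1.91), TUG1 (15.4) and MIAT (0.346). At 46 to 481 counts per library, the counting error of KCNQ1OT1, CYTOR, PVT1 and MIAT is larger than that of the other members.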

Other observations

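The members also differed in base composition and in AU-rich pentamers. GC content of the canonical transcripts was 41.8% for NORAD, 42.0% for MALAT1, 43.1% for TUG1 and 44.1% for NEAT1, and 47.2% to 55.7% for CYTOR, PVT1, MIAT and KCNQ1OT1, where the median over lncRNA transcripts was 46.4%. The pentamer ATTTA, searched on the transcript strand, occurred 13 times in NORAD (2.41 per kb), 23 times in MALAT1 (2.20 per kb) and 46 times in NEAT1 (2.02 per kb), against 9 times in TUG1 (1.20 per kb). The median over lncRNA transcripts of at least 1000 bases was 1.21 per kb. MIAT held 8 (2.13 per kb), PVT1 4 (1.64 per kb), KCNQ1OT1 1 (1.47 per kb) and CYTOR 0. A link between this measure and the direction of change was not tested. The canonical transcript of KCNQ1OT1 in GENCODE has 679 bases in 4 exons, while its longest has 91667, so its values describe a small share of the gene.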
